A study of Mus musculus with 8 samples.

Results

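Natural killer (NK) cells were examined in scRNA-seq of mouse left ventricle, as the barcodes selected on the UMI counts of a small set of genes. A barcode was taken as NK when the genes Ncr1, Klrb1c, Klre1 and Gzma together had at least 4 UMIs (unique molecular identifiers, each counted as 1 captured transcript), when Cd3d, Cd3e and Cd3g together had at most 1 UMI, when Cd79a, Cd79b and Ms4a1 together had at most 1 UMI, and when the C1q genes made up less than 0.1% of its UMIs, S100a8 and S100a9 less than 1% and Dcn with Col3a1 less than 0.15%. Barcodes also had to hold at least 200 genes and at most 30% mitochondrial UMIs. The rule found 293 NK barcodes among 19637 that passed the gene and mitochondrial limits and 20159 in all. Of these, 222 came from the sham library and 71 from the IR library.

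Hearts came from male C57BL/6 mice aged 10 to 12 weeks. IR mice underwent 30 min of ischemia by a slipknot around the left coronary artery followed by its release, and sham mice were operated on but the artery was left untied. The methods place both groups 6 h after surgery, whereas the sample records name them 0 h and 6 h after IR, and the 0 h record is called sham here. Cells of 3 hearts were pooled for a suspension and 4 samples were recorded for each condition, but the barcodes of a condition carry no sample label. Each condition was therefore 1 library without replicates, no test of sham against IR was possible, and no p value is given. The intervals below are 95% intervals that cover counting error only and leave out variation between animals. No sort preceded the library, so every class below rests on its RNA alone.

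NK cells are innate lymphocytes that kill infected, stressed or transformed cells by releasing perforin and granzymes, and that secrete interferon-γ and chemokines such as CCL3, CCL4 and CCL5. Their activity is set by the balance between activating receptors, such as NKp46 (encoded by Ncr1) and NKG2D (Klrk1), and inhibitory receptors for MHC class I, such as Ly49 family members and CD94–NKG2A. IL-15, IL-12, IL-18 and type I interferon control their survival and activation, and in the mouse they mature from CD27-positive toward CD11b-positive and KLRG1-positive stages.

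NK barcodes made up 1.95% of filtered sham barcodes (222 of 11377, exact binomial interval 1.71 to 2.22%) and 0.860% of filtered IR barcodes (71 of 8260, 0.672 to 1.08%). As a share of the lymphoid barcodes alone (NK, T and B), they made up 12.4% in sham (10.9 to 14.0%, of 1794) and 6.48% in IR (5.09 to 8.10%, of 1096). These intervals did not overlap with either denominator. T barcodes, taken by at least 2 CD3 UMIs, were 3.46% and 3.26% of filtered barcodes. B barcodes, taken by at least 2 UMIs of the B genes, were 10.4% (9.80 to 10.9%) and 9.15% (8.54 to 9.79%), which just failed to overlap. Both classes were held to at most 1 UMI of the rule's NK genes and at most 1 of the other class's genes. The C1q, S100 and Dcn with Col3a1 limits also applied to them. CD3-positive barcodes with more UMIs of the NK genes thus belong to no class and are not among the lymphoid barcodes. Of the lymphoid barcodes, B barcodes were 65.7% (63.4 to 67.9%) in sham and 69.0% (66.1 to 71.7%) in IR, which overlapped. A share describes recovered barcodes, so fewer NK cells in the tissue and a poorer recovery of them cannot be told apart. With barcodes of over 2500 genes left out, the share of filtered barcodes was 2.14% in sham and 1.37% in IR, and the share of lymphoid barcodes 12.5% and 6.52%. The limits acted before this count. Of 307 sham barcodes with an NK score of at least 4 UMIs, 37 were left out by the CD3 limit, 28 by the B limit, 19 by C1q, 3 by S100 and 13 by Dcn with Col3a1, some by several. Of 86 such IR barcodes, 11 were left out by CD3, 1 by B, 1 by C1q, 3 by S100 and 1 by Dcn with Col3a1.

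**Figure D1:**
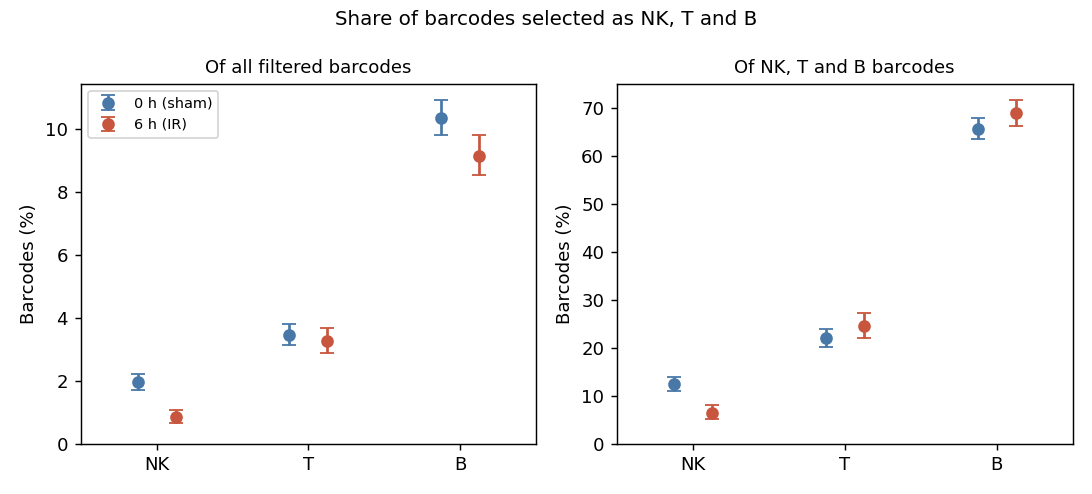
NK, T and B barcodes as a percentage of all filtered barcodes (left) and of the NK, T and B barcodes together (right), in the sham library (blue) and the IR library (red), with 95% exact binomial intervals for counting error. NK barcodes were 1.95% and 0.860% of filtered barcodes, the T intervals of the 2 libraries overlapped in both panels, and the B intervals overlapped in the right panel (63.4 to 67.9% and 66.1 to 71.7%) but not in the left (9.80 to 10.9% and 8.54 to 9.79%).

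The genes that chose the members are given as a description only. Gzma, a granule tryptase, gave most of the score, with 12590 UMIs per 1000000 (CPM) in sham and 7241 CPM in IR. Ncr1 was at 667 CPM in sham, with a UMI in 187 of 222 barcodes, and at 305 CPM in IR, with a UMI in 36 of 71. Klrb1c, which encodes NK1.1, was at 517 and 451 CPM, and Klre1 at 1165 and 737 CPM. The summed score had a median of 49.5 UMIs in sham (4 to 231) and 35 UMIs in IR (4 to 155). Just inside the threshold lay 1 sham and 3 IR barcodes with a score of 4, and just outside it 4 sham and 2 IR barcodes with a score of 3.

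The members' identity was checked on NK markers that the rule did not use. All 13 of these had UMIs in both libraries. Their summed level was 26990 CPM in sham NK and 25630 CPM in IR NK, against 1620 and 1518 CPM in T and 388 and 318 CPM in B barcodes. T and B barcodes with more than 1 UMI of the rule's NK genes had been left out, so the selection itself could widen these gaps. The gaps therefore do not set NK apart from CD3-positive barcodes that hold those genes. Nkg7, a granule membrane protein, had a UMI in 222 of 222 sham and 69 of 71 IR NK barcodes. Klrd1, the CD94 chain that pairs with NKG2 receptors, had one in 199 and 68 barcodes. Eomes, a T-box factor of conventional NK cells, was at 212 CPM in sham and 318 CPM in IR, against 9.71 and 1.77 CPM in T and 0 UMIs in B barcodes. Prf1, which encodes perforin, was at 280 and 188 CPM. The list of 7 T markers outside the rule was at 86.4 CPM in sham NK and 149 CPM in IR NK (91.5 and 152 CPM without mixed barcodes), against 1444 and 978 CPM in T barcodes. Nearly all of it was Cd28, a costimulatory receptor, with a UMI in 32 sham and 19 IR NK barcodes (59.2 and 92.2 CPM), and Lef1, a factor of the TCF family, with one in 18 and 16 (25.9 and 54.0 CPM). Cd4, Cd8b1 and Cd5 had no UMI in any NK barcode, and Cd8a and Cd6 had 1 each. The part of such UMIs in the results below was not tested. The 4 basophil and mast cell markers Mcpt8, Cpa3, Gata2 and Ms4a2 had no UMI in NK barcodes. The label of NK cells matched the NK markers in both libraries.

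Genes that stood highest in NK over T and B barcodes are given as levels, with no test, since the same barcodes were sorted by expression. By the smaller of the 2 libraries' log2 ratios (10 CPM added to each side), the first was Ccl5, a chemokine for T cells and monocytes, at 14250 CPM in sham and 15840 CPM in IR NK, against 593 and 408 CPM in T barcodes. Next came Gzmb, a granule serine protease that starts target cell apoptosis, at 1730 and 852 CPM. Klra4, which encodes the activating receptor Ly49D, was at 449 and 690 CPM, with 0 UMIs in T barcodes of both libraries. Serpinb9, an inhibitor of granzyme B that protects the killer cell, was at 593 and 706 CPM. Klrc2, an NKG2 family receptor chain, was at 450 and 582 CPM, and Xcl1, a chemokine that draws XCR1-positive dendritic cells, at 923 and 375 CPM. The other 9 of the 15 were Klra9, AW112010, Serpinb6b, Nkg7, Klra7, Klrk1, Klra8, Klrc1 and Spry2.

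**Figure D2:**
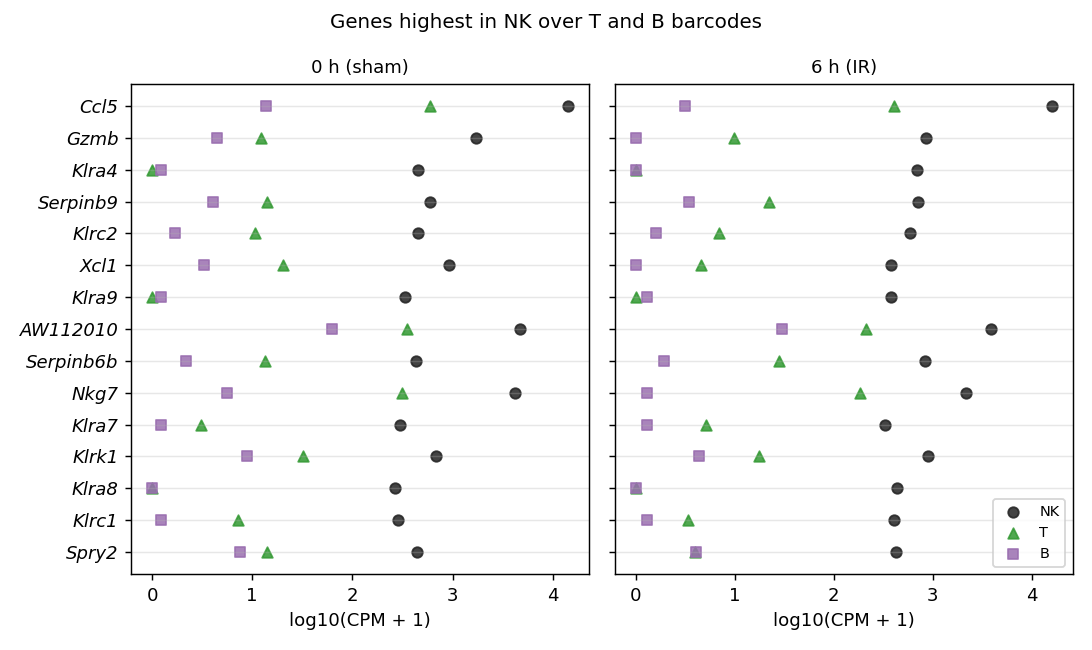
Level of the 15 genes that stood highest in NK over T and B barcodes, as log10(CPM + 1), in the sham (left) and IR (right) library, with NK as circles, T as triangles and B as squares. NK lay to the right of T and B for each of the 15 genes in both libraries, with Ccl5 farthest right at 14250 and 15840 CPM.

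Depth and quality differed between the libraries. NK barcodes held 810594 UMIs in sham and 314618 in IR, with medians of 2742.5 and 3693 UMIs and of 1149.5 and 1571 genes per barcode. The median mitochondrial share was 3.58% in sham and 6.09% in IR, and over 10% of UMIs were mitochondrial in 3 of 222 sham and 16 of 71 IR NK barcodes. Markers of other cells were spread over many NK barcodes for some lists and lay largely in 1 barcode for others. Fibroblast markers had a UMI in 129 of 222 sham and 39 of 71 IR NK barcodes, with 11.4% and 8.86% of these UMIs in 1 barcode, and macrophage and monocyte markers in 160 and 42, with 30.5% and 57.1% in 1. In sham 12 NK barcodes and in IR 3 held at least 10 UMIs over markers of another cell type, and their medians of 7583.5 and 15864 UMIs were above those of the remaining barcodes (2637 and 3687.5). Values without these mixed barcodes were added after the data had been seen and are given where they matter. The neutrophil marker list was at 6.17 CPM in sham NK (3 of 9 markers with a UMI) and 305 CPM in IR NK (8 of 9, Ly6g at 0), and at 5.55 and 141 CPM without mixed barcodes. T barcodes had 22.9 and 243 CPM of the same list and B barcodes 47.8 and 234 CPM. No NK barcode sequence occurred in both libraries.

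Among 3011 genes with at least 50 UMIs over all NK barcodes, 301 (10.0%) were 2-fold or more higher in IR and 239 (7.94%) 2-fold or more lower, with a count of 0 set to 3 UMIs. The median log2 ratio over these genes was 0.06. Without mixed barcodes, 251 of 2642 genes (9.5%) were higher and 227 (8.59%) lower, of which 201 and 178 were among those of all barcodes. A ratio of 2-fold or more is a size and not a test, and every count for a gene list below is to be read against these shares.

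**Figure D3:**
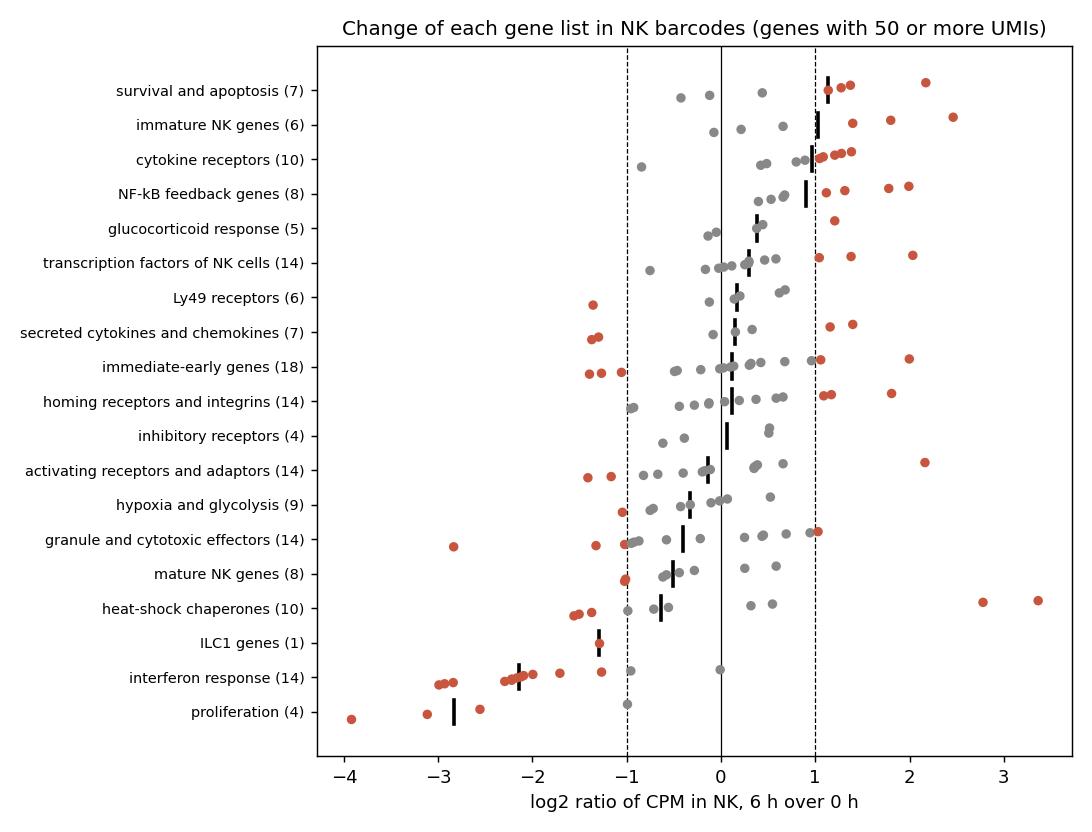
log2 ratio of CPM in IR over sham NK barcodes for each gene with at least 50 UMIs, by gene list (number of such genes in parentheses), with the list's median as a black bar, dashed lines at 2-fold and genes past 2-fold in red. Interferon response and proliferation genes lay lowest, with medians of -2.14 and -2.84, and survival, immature NK and cytokine receptor genes highest, with medians of 1.14, 1.03 and 0.97.

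Genes of the type I interferon response were lower in IR NK barcodes. Of 25 members measured, 14 had at least 50 UMIs, and 12 of these 14 were 2-fold or more lower in IR, 0 were higher and the median log2 ratio was -2.14. Without mixed barcodes 10 members kept 50 UMIs, of which 8 were lower, with a median of -1.91. The 2 members within 2-fold were Irf1 (-0.01) and Ifi47 (-0.96). Of the 11 members under the minimum, Ifit1 went from 41 sham UMIs to 1 IR UMI and Rsad2 from 41 to 1, whereas Isg20 had 17 and 10 and Stat2 5 and 6.

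Bst2, which encodes the antiviral tether tetherin, had 443 UMIs in 131 of 222 sham NK barcodes (547 CPM, Poisson interval 497 to 600) and 24 UMIs in 10 of 71 IR barcodes (76.3 CPM, 48.9 to 114), 13 of them in 1 barcode. The log2 ratio was -2.84 (-3.5 to -2.25), and it was -2.57 without mixed barcodes. Xaf1, an interferon-induced factor that promotes apoptosis, went from 118 UMIs to 6 (log2 -2.93, -4.41 to -1.77). Irf7, the factor that amplifies type I interferon transcription, had 139 UMIs in 94 sham barcodes and 11 UMIs in 9 IR barcodes (log2 -2.29, -3.33 to -1.41). Isg15, a ubiquitin-like modifier, had 235 and 21 UMIs (log2 -2.12, -2.84 to -1.47), and -1.46 without mixed barcodes. Sham levels thus lay above IR levels beyond counting error for each of these 4 genes, both in UMIs and in the number of barcodes that held them.

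The upstream sequences of 2 of these genes are shown since they hold matches to the element through which interferon-activated complexes bind DNA, while the windows of Xaf1 and Irf7 held none. They span the 250 bases before the start site in the RefSeq promoter table (GRCm38.p6, both genes on the minus strand, 5′ to 3′). Capitals mark matches to the motif GAAANNGAAA, a core of the interferon-stimulated response element, searched on both strands with overlaps allowed.
Bst2, chr8:71537473-71537722: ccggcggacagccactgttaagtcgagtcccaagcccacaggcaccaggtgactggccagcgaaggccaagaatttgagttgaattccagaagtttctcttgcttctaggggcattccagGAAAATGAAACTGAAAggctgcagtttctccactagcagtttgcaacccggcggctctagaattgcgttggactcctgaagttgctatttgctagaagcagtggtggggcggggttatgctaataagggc
Isg15, chr4:156200819-156201068: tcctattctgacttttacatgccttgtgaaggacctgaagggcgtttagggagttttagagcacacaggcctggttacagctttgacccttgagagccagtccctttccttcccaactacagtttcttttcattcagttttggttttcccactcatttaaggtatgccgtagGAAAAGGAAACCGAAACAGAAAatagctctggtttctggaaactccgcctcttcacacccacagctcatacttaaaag
Bst2 had 2 overlapping matches that began 130 and 124 bases before the start site, and Isg15 had 3 that began 78, 72 and 66 bases before it. In windows of 300 bases, 250 before and 50 after each start, the motif occurred in 3 of the 8 tested interferon genes with an entry in the table and in 109 of 2360 tested genes with one (4.62%), and in 1131 of all 32851 windows (3.44%). The third was Ifit3, at 72 sham and 6 IR UMIs. A match describes the letters and says nothing of binding.

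The interferon genes were also lower in the other lymphocytes. In T barcodes 11 of the 14 were 2-fold or more lower, against 3.15% of 5328 genes tested there, with a median log2 ratio of -2.37. In B barcodes 13 of 14 were lower, against 3.76% of 8184 genes, with a median of -2.81. For Bst2 the log2 ratio was -3.35 in T and -2.88 in B, next to -2.84 in NK, and for Isg15 it was -2.89 and -2.71, next to -2.12 in NK. Ratios of Irf9, a subunit of the interferon-activated complex, were -2.22 in NK (-4.15 to -0.77), -0.63 in T and -1.12 in B. Differences between the cell types were not tested.

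At equal depth the shift was spread over barcodes. After each barcode was thinned to 1000 UMIs (2 sham and 1 IR NK barcodes with fewer were left out), 180 of 220 sham NK barcodes (81.8%) held a UMI of the interferon list and 29 of 70 IR NK barcodes (41.4%) did. The median per barcode was 2 UMIs in sham and 0 in IR, and the highest values were 18 and 5. The sum over the list was lower in sham NK than in sham T and B barcodes, whose medians were 5 and 8 UMIs, and 69.3% of sham T and 84.7% of sham B barcodes held at least 3 UMIs against 40.5% of sham NK barcodes. This did not hold for each gene. Ifi27l2a had a UMI in 13.6% of sham NK, 69.8% of sham T and 85.9% of sham B barcodes and Ly6a in 7.27%, 25.6% and 57.9%, whereas Isg15 had one in 19.1%, 17.8% and 16.6% and Irf7 in 15.5%, 10.7% and 23.2%. For Bst2 alone, 33.6% of thinned sham NK barcodes had a UMI (27.4 to 40.3%) and 1 of 70 IR barcodes, whereas the unthinned shares were 59.0% and 14.1%.

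**Figure D4:**
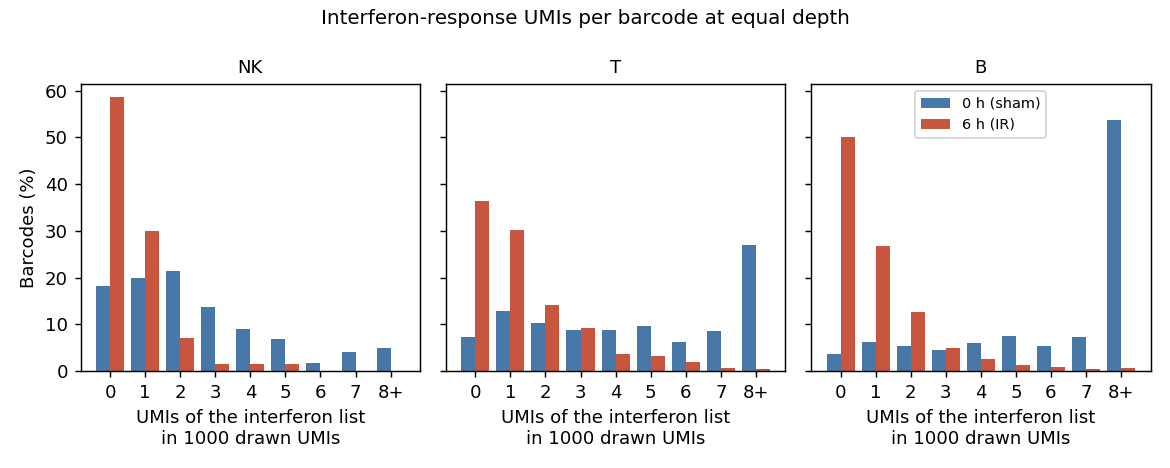
Percentage of barcodes by their number of UMIs of the interferon-response list after thinning to 1000 UMIs, in NK, T and B barcodes of the sham (blue) and IR (red) libraries. In sham the NK median was 2 UMIs, below 5 in T and 8 in B, and in IR most NK barcodes had 0.

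Genes of the cell cycle were lower in IR NK. Of 10 members of the proliferation list, 4 had at least 50 UMIs, 3 of these were 2-fold or more lower and the median log2 ratio was -2.84 (-2.70 without mixed barcodes, where all 4 were lower). Stmn1, a microtubule-destabilizing protein of dividing cells, had 273 UMIs in 54 sham barcodes and 18 UMIs in 17 IR barcodes (log2 -2.56, -3.33 to -1.87). Top2a, a topoisomerase needed in S and G2 phase, had 78 UMIs in 22 sham barcodes and 2 in IR (log2 -3.92, -6.99 to -2.02). Mcm3, a subunit of the replicative helicase, had 67 and 3 UMIs, and Pcna, the replication clamp, 123 and 24 UMIs (log2 -0.99, -1.69 to -0.35). Of the 6 members under the minimum, 5 had UMIs in both libraries, with log2 ratios of CPM between -4.13 (Birc5, 45 and 1 UMIs) and -1.72 (Tyms, 34 and 4 UMIs), and Ccnb2 had 14 and 0 UMIs. 2810417H13Rik had 118 UMIs in 17 sham barcodes and 0 in IR, a log2 ratio of -3.93 at the floor of 3 UMIs over the library, with the interval bound nearest 0 at -3.61 and a ratio of -3.84 without mixed barcodes. With an NK score of 3 or more, which adds 2 IR barcodes, the ratios of Top2a, Stmn1 and 2810417H13Rik were -0.19, -0.99 and -0.77, all within 2-fold. Dut, a nucleotide pool enzyme, had 141 and 6 UMIs.

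These UMIs sat in a minority of sham NK barcodes. At least 5 UMIs of the list were found in 26 of 222 sham barcodes (11.7%, 7.80 to 16.7%), whose median depth was 7138.5 UMIs, and in 0 of 71 IR barcodes, with an exact upper bound of 5.06% (4.23% by a floor of 3 barcodes). The highest sum was 78 UMIs in sham and 3 in IR. Thinned to 1000 UMIs, 9 of 220 sham barcodes (4.09%) and 0 of 70 IR barcodes held at least 3 UMIs of the list. Any UMI of it was found in 26.4% (20.7 to 32.7%) and 21.4% (12.5 to 32.9%) of thinned barcodes, which overlapped. In T barcodes Stmn1 and Top2a were also lower (log2 -1.85 and -2.29), and in B barcodes their ratios were -0.10 and 0.87. The T ratios rested on few barcodes. At equal depth Stmn1 had a UMI in 24 of 394 sham and 5 of 269 IR T barcodes, and Top2a in 5 and 2. At least 3 UMIs of the list were held by 3 sham and 0 IR T barcodes.

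Effector genes of the granule varied in both directions. Of 14 tested members, 3 were 2-fold or more lower (Gzmb, Gzmc and Cst7), 1 was higher (Srgn) and the median log2 ratio was -0.40. Without mixed barcodes 2 of 13 were lower and 1 higher. Gzmb had 1402 UMIs in 196 sham barcodes and 268 UMIs in 41 of 71 IR barcodes (log2 -1.02, -1.22 to -0.83), and -0.89 without mixed barcodes. At equal depth 73.2% of sham barcodes (66.8 to 78.9%) and 37.1% of IR barcodes (25.9 to 49.5%) held a Gzmb UMI. Thinned T barcodes held one in 2 of 394 in sham and 4 of 269 in IR, and thinned B barcodes in 1 in sham and 0 in IR. Nkg7 went from 4193 to 2168 CPM (log2 -0.95, -1.07 to -0.83) and Prf1 from 280 to 188 CPM (-0.58, -1.02 to -0.16). Cst7, which encodes the cathepsin inhibitor cystatin F, had 226 and 35 UMIs (-1.33, -1.88 to -0.81). Gzmc had 92 UMIs in 9 sham barcodes, 46 of them in 1, and 5 UMIs in 1 IR barcode. In the opposite direction, Srgn, the proteoglycan that holds granzymes in the granule, went from 708 to 1446 CPM (1.03, 0.85 to 1.21), and from this list Serpinb6b, a serpin, went from 434 to 836 CPM (0.94, 0.71 to 1.18). Without mixed barcodes Srgn was at 0.87 and Serpinb6b at 1.04. Fasl, the death ligand, was at 165 and 267 CPM (0.69, 0.28 to 1.10).

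The secreted factors did not move together, with 2 of 7 tested members higher, 2 lower and a median log2 ratio of 0.15. Ccl5 was found in every NK barcode of both libraries (0.15, 0.10 to 0.20). Ccl4, a chemokine that attracts monocytes and T cells, had 2553 UMIs in 196 sham barcodes and 383 UMIs in 50 IR barcodes, or 3150 and 1217 CPM (-1.37, -1.53 to -1.22), and -1.56 without mixed barcodes. In T barcodes the Ccl4 ratio was 2.0 and in B barcodes 1.55, from low levels. At equal depth a Ccl4 UMI was held by 70.0% of sham and 45.7% of IR NK barcodes. These shares were 3.81% and 12.3% in T and 5.66% and 12.9% in B barcodes. Ccl3 was at 766 and 963 CPM in NK (0.33, 0.13 to 0.53), with 113 of its 303 IR UMIs in 1 barcode, and at -0.14 without mixed barcodes. Xcl1 was lower in IR (-1.30, -1.59 to -1.02). Ifng, the main activating cytokine of NK cells toward macrophages, was at 212 and 200 CPM (-0.08, -0.52 to 0.34) in 87 sham and 22 IR barcodes. Ltb (1.40, 0.77 to 2.03) and Tgfb1 (1.16, 0.75 to 1.56) were higher. Tnf had 11 and 28 UMIs, too few to be counted.

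Receptors through which NK cells sense cytokines were higher in IR in 5 of 10 tested members and lower in 0, with a median log2 ratio of 0.97 (0.90 and 5 of 10 without mixed barcodes). Ifngr1, the ligand-binding chain for interferon-γ, had 543 UMIs in 191 sham barcodes and 511 UMIs in 69 of 71 IR barcodes, or 670 and 1624 CPM (1.28, 1.10 to 1.46). Il18r1, the IL-18 receptor chain, was at 97.5 and 254 CPM (1.38, 0.92 to 1.85), and its partner Il18rap at 162 and 334 CPM (1.05, 0.66 to 1.43). Ifnar1, a chain of the type I interferon receptor, had 48 and 43 UMIs (1.21, 0.58 to 1.83), and Tgfbr2 34 and 28 UMIs (1.09, 0.31 to 1.85). The ratio of Il2rb, shared by the IL-2 and IL-15 receptors, was 0.48 (0.18 to 0.78), and that of the common γ chain Il2rg was -0.84 (-1.28 to -0.43). Of the tested receptors in T and B barcodes, 0 of 8 and 0 of 6 passed 2-fold in either direction, where 5.63% and 3.71% of all genes were higher. Their median log2 ratios were 0.59 in T and 0.18 in B. At equal depth, 3 or more UMIs of the list were held by 43.2% of sham and 70.0% of IR NK barcodes and by 19.3% and 34.6% of T barcodes, so the shares were higher in IR in both. The lower interval bound passed 2-fold for Ifngr1 alone, and the mean over barcodes of scaled values left 2 of 10 past it.

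**Figure D5:**
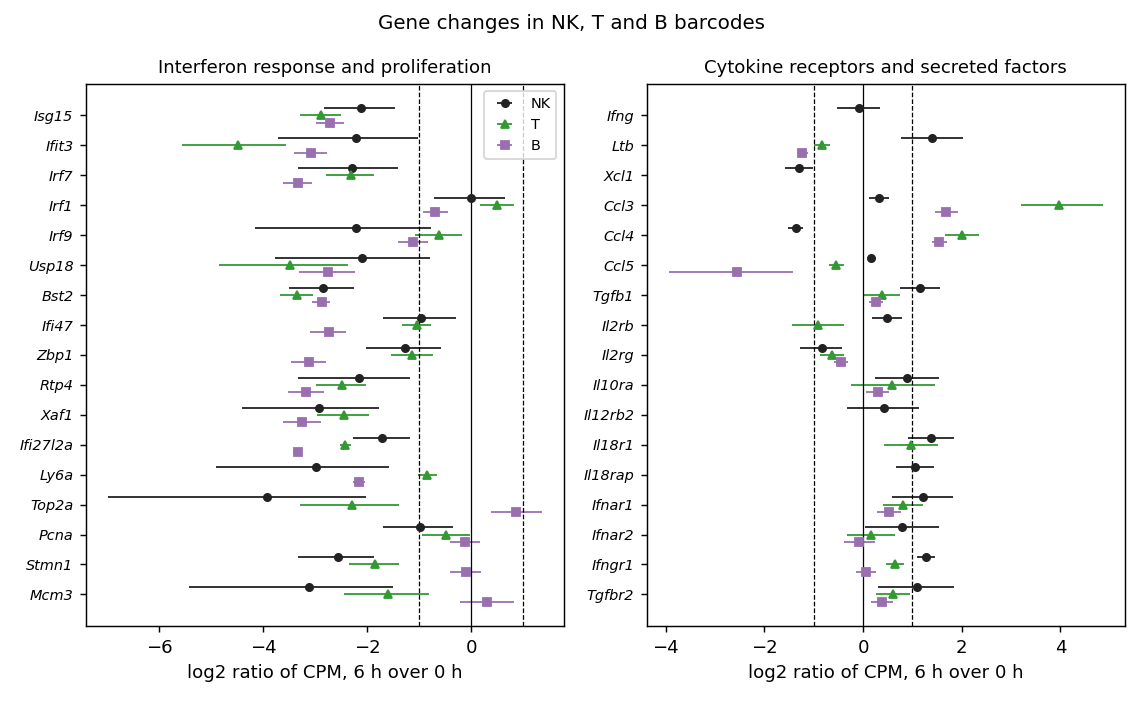
log2 ratio of CPM in IR over sham with 95% counting intervals in NK (circles), T (triangles) and B (squares) barcodes, for genes of the interferon-response and proliferation lists (left) and of the secreted factor and cytokine receptor lists (right), with dashed lines at 2-fold. T and B values are drawn where the gene had at least 50 UMIs there and UMIs in both libraries. Ccl4 lay at -1.37 in NK and at 2.0 in T and 1.55 in B.

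Genes tied to maturation were counted by stage. Of 6 tested genes of immature NK cells, 3 were 2-fold or more higher in IR and 0 lower (median log2 ratio 1.03), and of 8 tested genes of mature NK cells, 2 were lower and 0 higher (-0.51). Without mixed barcodes 3 of 6 were higher in the first list and 1 of 8 lower in the second, and the difference between the lists was not tested. Ctla2a, a cysteine protease inhibitor, had 346 UMIs in 120 sham barcodes and 468 UMIs in 54 of 71 IR barcodes, or 427 and 1488 CPM (1.80, 1.60 to 2.01), while its ratio was -0.30 in T barcodes. Emb, which encodes embigin, had 43 and 92 UMIs (2.46, 1.93 to 3.02). Ltb was the third of these, and Cd27 itself was at 74.0 and 85.8 CPM (0.21, -0.50 to 0.89). Among mature genes, Cma1 was at 295 and 146 CPM (-1.01, -1.5 to -0.55), and Klrg1 at 97.5 and 63.6 CPM (-0.62, -1.40 to 0.11). Zeb2 (0.25) and Itgam (0.59), which encodes CD11b, had ratios above 0. Thinned to 1000 UMIs, Cd27 was seen without Itgam in 16 of 220 sham and 4 of 70 IR barcodes, Itgam without Cd27 in 20 and 9, both in 3 and 1, and neither in 82.3% and 80.0%. At this depth the stages could not be told apart for most barcodes.

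Genes of type 1 innate lymphoid cells, a related tissue-resident lineage, were mostly under the minimum. Of 10 members Xcl1, given above, was the one tested, and at 1000 UMIs any UMI of the list was found in 32.3% of sham and 30.0% of IR NK barcodes, against 56.3% and 58.7% of T barcodes. A UMI of Cxcr6 or Il7r was found in 7 of 222 sham NK barcodes (3.15%, 1.28 to 6.39%) and 11 of 71 IR barcodes (15.5%, 8.0 to 26.0%), and at 1000 UMIs in 2 of 220 and 6 of 70. Of those at full depth, 6 sham and 7 IR barcodes held no Eomes UMI. Zfp683, a factor of these cells, had 0 UMIs, and Itga1 had 2 and 3. Il7r was seen in 40.9% of thinned sham T barcodes and 49.4% of thinned IR T barcodes, against 1 of 220 and 6 of 70 NK barcodes. Cells of this lineage that hold UMIs of Ncr1, Klrb1c or Gzma would be chosen by the same rule.

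Receptor genes passed 2-fold in both directions. Of 14 tested activating receptors and adaptors, 1 was higher (Fcgr3) and 2 lower (Slamf7 and Cd160), with a median log2 ratio of -0.14. Without mixed barcodes 0 of 13 were higher and 1 lower, with Slamf7 at -0.87 and Fcgr3 under the minimum at 12 and 21 UMIs (2.26, 1.17 to 3.42). Klrk1 was at 676 and 884 CPM (0.39, 0.17 to 0.60). The adaptors Tyrobp and Fcer1g, through which several activating receptors signal, were at -0.82 and -0.40. Slamf7 had 104 and 18 UMIs (-1.17) and Cd160 48 and 7 UMIs (-1.41). Fcgr3, the CD16 receptor for antibody, had 23 and 40 UMIs (2.16), was higher in T barcodes as well (3.22), and is abundant in myeloid cells. Of 4 tested inhibitory receptors 0 passed 2-fold, with Klrc1, which encodes NKG2A, at 0.51 (0.18 to 0.82).

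Ly49 genes, which NK cells express in variegated combinations, were measured in both libraries. Of 6 tested genes 1 was 2-fold lower (Klra1, with 66 and 10 UMIs), and the ratios of Klra8, which encodes Ly49H, and Klra4 were 0.68 (0.36 to 1.0) and 0.62 (0.37 to 0.87). Klra9 (Ly49I) had a UMI in 110 of 222 sham barcodes, Klra8 in 95 and Klra4 in 93. These genes are close paralogs, so counts of single members are uncertain. At 1000 UMIs, 0 of the 9 Ly49 genes were seen in 39 of 220 sham barcodes and 20 of 70 IR barcodes, 1 in 101 and 18, 2 in 60 and 18, and 3 or 4 in 20 and 14. At full depth the median was 2 Ly49 genes per barcode in both libraries and the maximum 5.

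Of 14 tested transcription factors that set NK identity, 3 were 2-fold higher and 0 lower, with a median log2 ratio of 0.29, and without mixed barcodes 1 of 13 was higher. The 3 were Stat4, the signal transducer of IL-12 (95 and 96 UMIs, 1.38, 0.96 to 1.81), Nfil3 (1.04, 0.41 to 1.67) and Id3, of which 19 of 35 IR UMIs lay in 1 barcode and which was at -0.55 without mixed barcodes. Eomes was at 0.58 (0.21 to 0.95), Tbx21 at 0.30 (-0.22 to 0.79) and Id2 at -0.02 (-0.22 to 0.17). Klf2, a factor of quiescence and recirculation, was at -0.75 (-0.97 to -0.54).

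Homing receptors were higher in 3 of 14 tested members and lower in 0, with a median of 0.12, and without mixed barcodes 3 were higher and 1 lower (S1pr4). The 3 higher were Cd44, a hyaluronan receptor (75.3 and 264 CPM, 1.81, 1.32 to 2.31), Ccr2, the receptor for CCL2 (206 and 464 CPM, 1.17, 0.84 to 1.5) and Cxcr4, the receptor for CXCL12 (206 and 439 CPM, 1.09, 0.75 to 1.42). Cxcr4 was at -0.75 in T barcodes. Of the homing receptors tested there, 2 of 12 in T and 3 of 13 in B barcodes were 2-fold or more higher, and 0 lower. Over all genes tested in T and B barcodes, 5.63% and 3.71% were higher. S1pr4, a sphingosine phosphate receptor, was at -0.93 and Itgb7 at -0.96, while Selplg, a selectin ligand, was at 0.04.

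Survival genes were higher in 4 of 7 tested members and lower in 0 (median 1.14, or 0.64 with 2 of 7 higher without mixed barcodes). Bcl2l11, which encodes the pro-apoptotic protein BIM, had 72 UMIs in 55 sham barcodes and 126 UMIs in 47 of 71 IR barcodes (2.17, 1.74 to 2.61). Mcl1, an anti-apoptotic protein on which NK cells depend, went from 236 to 610 CPM (1.37, 1.08 to 1.67), with 43 of 192 IR UMIs in 1 barcode and a ratio of 1.32 without mixed barcodes. The list thus holds members of opposite function on the same side. Both were also higher in T barcodes (1.16 and 1.04), where 4 of the 7 passed 2-fold. NF-κB feedback genes were higher in 4 of 8 tested members and lower in 0 (median 0.90, or 0.44 with 3 of 8 without mixed barcodes). Tnfaip3, which encodes A20, had 170 and 164 UMIs (1.31, 1.0 to 1.63), Birc3 27 and 36 UMIs (1.78, 1.02 to 2.56), and Nfkbiz 66 and 102 UMIs (1.99), of which 40 IR UMIs lay in 1 barcode.

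Of 10 tested heat-shock chaperones 2 were higher, Hspa1a (21 and 56 UMIs, 2.78) and Hspa1b (14 and 56 UMIs, 3.37), and 3 lower, Hsp90ab1 (2770 and 976 CPM, -1.51, -1.68 to -1.33), Hspe1 (-1.56, -1.94 to -1.20) and Hsph1 (-1.37, -2.57 to -0.35). Without mixed barcodes 1 of 9 was higher and 4 lower, with Hsp90aa1 at -1.16 as the fourth. The IR UMIs of Hspa1a came from 11 barcodes with 31 in 1, and these near-identical paralogs cannot be separated with confidence. Of 18 tested immediate-early genes 2 were higher (Ier3 and Btg2) and 3 lower (Fos, Egr1 and Atf3). Without mixed barcodes 3 of 15 were higher and 0 lower, with Fos at -0.69 and Egr1 at -0.999, and at equal depth 44 of 220 sham and 14 of 70 IR NK barcodes held a Fos UMI. Junb, the most abundant of the list, was at 0.42 (0.30 to 0.55). Txnip, 1 of 5 tested glucocorticoid-response genes, was higher (273 and 629 CPM, 1.21, 0.92 to 1.49), whereas Tsc22d3 was at 0.38. Of 9 glycolysis and hypoxia genes 1 was lower, Gapdh (1030 and 499 CPM, -1.05, -1.30 to -0.80).

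Several of the largest ratios rested on few barcodes. By the interval bound nearest 0, the 12 highest genes in IR NK were Chil3, Cd14, Slpi, Hp, Il1b, Clec4e, Mt2, Thbs1, Lilr4b, Cxcl2, Mt1 and Lyz2, and most of these are genes of neutrophils, monocytes or macrophages. Chil3 had 1 sham and 303 IR UMIs, 205 of them in 1 barcode, and 1 and 6 UMIs without mixed barcodes (4.04). Lyz2 had 163 and 456 UMIs, with 304 in 1 barcode, and a ratio of 0.27 without mixed barcodes. Il1b had 390 IR UMIs, 279 in 1 barcode, and Cxcl2 230 UMIs in 58 of 71 IR barcodes. Without mixed barcodes 10 of the 12 ratios stayed past 2-fold, all but Hp (0.45) and Lyz2, and they lay between 2.17 (Mt1) and 4.70 (Il1b). Of these 10 genes, only Il1b and Cxcl2 still had at least 50 UMIs then. The ratios of Il1b and Cxcl2 were 4.70 and 4.56, and they were 4.59 and 5.0 in T and 2.83 and 3.77 in B barcodes. The share of these UMIs that came from RNA of other cells was not tested. The 12 lowest were Hbb-bs, 2810417H13Rik, Hba-a2, Hba-a1, Igfbp5, Bst2, Hbb-bt, H2-Eb1, Dut, Top2a, H2-Ab1 and Stmn1. Of the hemoglobin genes, Hbb-bs had 683 of 905 sham UMIs in 1 barcode and a ratio of -0.79 without mixed barcodes. Hba-a2, Hba-a1 and Hbb-bt were at -0.05, 0.32 and 0.72 without mixed barcodes. Igfbp5 had 90 of 93 sham UMIs in 1 barcode. H2-Eb1 and H2-Ab1, which encode MHC class II chains, had 76 of 197 and 78 of 262 sham UMIs in 1 barcode, and were at -2.01 and -1.45 without mixed barcodes. With an NK score of 3 or more their signs turned, to 1.99 and 1.55.

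Variation among the members was described by clustering all 293 barcodes without the genes of the rule, with no test, since the clusters were made from the same values. Of 5 clusters, cluster 0 held 85 sham and 1 IR barcodes and was led by Khdc1a and Cma1. Cluster 1 held 7 sham and 65 IR barcodes and was led by Mt1, Dgat1 and Gm42418. Cluster 2 held 60 sham and 1 IR barcodes and was led by Hbb-bs, Ly6c2, Cma1 and Klrg1. Cluster 3 held 49 sham and 1 IR barcodes, with a median of 5405 UMIs, and was led by 2810417H13Rik, Top2a, Stmn1 and Mki67. Cluster 4 held 21 sham and 3 IR barcodes, was led by Lyz2, Cd74 and Lgals3, and contained 8 of the 15 mixed barcodes. With 1 library per condition, cluster 1 cannot be told apart from the IR library itself. The sham barcodes lay in several clusters, of which cluster 3 carried proliferation genes, and 65 of 71 IR barcodes lay in cluster 1. Both libraries were clustered together without correction between them, with 222 sham barcodes against 71. How uniform the barcodes of each library were was therefore not compared.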

How the data were processed

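The values in the deposited matrices, 1 for sham (recorded as 0 h) and 1 for IR (6 h), are raw UMI counts of each gene in each barcode. Libraries of left ventricular cells were made with a 10× Chromium 3′ kit and aligned to mm10 with Cell Ranger; the matrix headers name version 3.1.0. Each matrix pools 4 samples, and 30 barcode sequences occur in both matrices.

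NK, T and B barcodes were selected on the marker UMIs stated in the report. The study's upper limit of 2500 genes was not applied and served as an alternative, and doublets were not called otherwise. Counts were summed over the barcodes of a class and divided by their total (CPM). Ratios carry exact conditional binomial intervals, CPM exact Poisson intervals and shares exact Clopper-Pearson intervals, all at 95%. Counts of 0 were set to 3 UMIs over the library. UMIs are not independent across a barcode, so the intervals are minimal. Gene positions came from GENCODE on GRCm38, and promoter windows from RefSeq (GRCm38.p6).

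Named genes were the 12 highest and 12 lowest by the interval bound nearest 0 among genes with at least 50 UMIs, the 15 highest in NK over T and B, and up to 8 of each list (4 by UMIs, 4 by ratio); other list members named fell outside this rule and were named after their values were seen. Some members counted in the lists are not reported here by name. The members and lists were chosen with earlier results of these data known. Clusters used 1000 variable genes, 15 components and Leiden resolution 0.8. Python 3.11.15, numpy 2.4.6, scipy 1.17.1, pandas 2.3.3, scanpy 1.11.5, leidenalg 0.10.2 and matplotlib 3.10.9 were used. Alternatives changed the selection limits, the scaling, the UMI minimum and the call.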

Additional observations from a re-analysis of the deposited data

Results flagged for a closer look

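Named genes that passed 2-fold in opposite directions in NK and another lymphocyte class are given here, and these differences were not tested. Genes outside the named set are not covered, apart from Rgs5, a marker of mural cells. Rgs5 was at 46.9 and 226 CPM in sham and IR NK. Of its 71 IR UMIs in NK, 69 lay in 1 mixed barcode. It was at 162 and 7.69 CPM in T and at 77.1 and 11.1 CPM in B barcodes. Ccl4 was at a log2 ratio of -1.37 in NK, 2.0 in T and 1.55 in B barcodes. At equal depth 3.81% of sham and 12.3% of IR T barcodes held a Ccl4 UMI, as did 5.66% and 12.9% of B barcodes. In NK barcodes the shares were 70.0% and 45.7%. The part of the Ccl4 UMIs that came from RNA of other cells was not tested. 2810417H13Rik was at -3.93 in NK, with its IR count of 0 set to 3 UMIs, at -5.96 in T (53 and 1 UMIs) and at 1.41 in B barcodes. With an NK score of 3 or more, its NK ratio was within 2-fold. Ltb was at 1.40 in NK and -1.23 in B barcodes.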

How the results depend on the processing

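No paired analysis was possible because the barcodes carry no sample number and each condition is 1 library. With at most 2500 genes per barcode, NK barcodes were 2.14% of filtered sham and 1.37% of filtered IR barcodes, since that limit removes more of the other IR barcodes. A minimum of 20 UMIs gave 842 higher and 500 lower genes of 5630 tested, a minimum of 150 UMIs gave 64 and 88 of 1017, and asking the interval bound to pass 2-fold gave 76 and 58 of 3011. Lower interferon genes numbered 5 at 150 UMIs, where fewer were tested, and between 8 and 17 under the other alternatives. Lower proliferation genes numbered 8 at 20 UMIs and 1 at 150 UMIs. Higher cytokine receptors numbered 3 with an NK score of 3 or more, 2 with means over barcodes, 3 at 150 UMIs and 1 by the interval bound; the cause was not tested for the first of these. Signs turned for Id3 (-0.39 with at most 2500 genes and -0.55 without mixed barcodes), Hba-a1 (0.32) and Hbb-bt (0.72) without mixed barcodes, and H2-Eb1 (1.99) and H2-Ab1 (1.55) with a score of 3, which adds 4 sham and 2 IR barcodes. Igfbp5 had 3 and 0 UMIs with at most 2500 genes and 2 and 0 UMIs without mixed barcodes, so its values there (1.35 and 2.04) come from setting 0 to 3 UMIs and show no direction. Of 125 named genes, 70 were past 2-fold, and 40 of these 70 stayed past it in the same direction under all 11 alternatives run on them, among them Bst2, Isg15, Xaf1, Ifngr1, Il18r1, Ctla2a, Emb, Ccl4 and Bcl2l11, whereas Top2a, Stmn1, 2810417H13Rik, Gzmb, Xcl1, Il18rap, Ifnar1 and Cma1 did not. With 71 IR barcodes and no replicates, depth limits genes under 50 UMIs and every statement about animals.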

Other observations

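The genes here stood outside the lists above and were chosen after their values were seen, so they carry no weight beyond these 2 libraries. Rgs1, a brake on G protein-coupled chemokine receptors, had 333 UMIs in sham and 465 UMIs in the smaller IR set, a log2 ratio of 1.85 (1.81 without mixed barcodes). Crem, a cyclic AMP-responsive transcription factor, had 47 and 96 UMIs (2.40 and 2.39 without mixed barcodes). Dgat1, the enzyme of the last step of triglyceride synthesis, had 25 and 65 UMIs (2.74 with or without mixed barcodes).

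Among genes lower in IR NK barcodes, the tubulin gene Tuba1b had 360 and 26 UMIs (-2.43) and Tubb5, another, had 520 and 53 UMIs (-1.93); other tubulin genes were not counted. Sdf2l1, Creld2 and Calr, which act in the endoplasmic reticulum, were named singly and not as a tested group: Sdf2l1 had 175 and 14 UMIs (-2.28), Creld2 had 64 and 2 UMIs (-3.63) and Calr had 641 and 89 UMIs (-1.48). Without mixed barcodes Sdf2l1, Creld2 and Calr were at -3.04, -4.48 and -1.94. Ly6c2, a surface marker, had 681 and 68 UMIs (-1.96) in 91 sham and 21 IR NK barcodes. Lgals1, which encodes galectin-1, had 2647 and 297 UMIs (-1.79), with UMIs in 215 of 222 sham barcodes and 53 of 71 IR barcodes. All of these were past 2-fold also without mixed barcodes.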
